A study of Mus musculus with 12 samples.

Results

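Metformin was compared with vehicle in wild-type haematopoietic progenitors of the mouse, as 3 metformin libraries (WT MET 1, 2 and 3) against 3 vehicle libraries (WT VEH 1, 2 and 3). These 6 of the 12 bulk RNA-seq libraries were taken by their column names, and the comparison ran across all genes. The cells were uncultured bone marrow cells sorted as lineage-negative and cKit-positive, a gate that holds stem cells and committed progenitors. Wild type here means Dnmt3a+/+ on C57BL/6, crossed to the line Mx1-cre, whose recombinase is driven by an interferon-inducible promoter. The other 6 libraries carried Dnmt3a fl-R878H/+ with the same Cre line (the mutant, RH) and entered the same fit, which shares the spread and the term for the round over all 12 libraries, so they also bear on the wild-type fold changes. The mice had received metformin or vehicle for 1 month in a competition experiment in vivo. Each treatment group had 2 animals according to the labels, which do not say which animal gave which library. The p-values therefore rest on differences among libraries of a group, and these may be technical.

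Metformin is a biguanide that enters cells through organic cation transporters and inhibits complex I of the respiratory chain. The fall in cellular energy activates the kinase AMPK, which phosphorylates acetyl-CoA carboxylase, restrains the lipogenic factor SREBP1 and lowers the activity of mTORC1. These are changes in enzyme activity, and transcript levels show them only indirectly.

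Total counts were 13487326 to 19420425 per wild-type library. Levels are CPM, read counts scaled to a common library size with TMM factors. In WT MET 2, 1 CPM stood for 9.86 reads, against 17 to 20.7 reads in the other 5 wild-type libraries. WT MET 2 stood apart in its mitochondrial share of counts, at 33.3% against 1.57% to 4.32% in the other 5, so each gene list is given with and without it, and so is each gene whose fold change moves by over 1.5 times when it is left out. WT VEH 1, WT VEH 2 and WT MET 1 are called round 1, because their columns also stand in a second, smaller deposited table. WT VEH 3, WT MET 2 and WT MET 3, which do not, are called round 2. Kit, which encodes the receptor of the sort, stood at 118, 177 and 200 CPM in vehicle libraries 1, 2 and 3 and at 167, 127 and 138 CPM in metformin libraries 1, 2 and 3.

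No gene passed an adjusted p of 0.05 between metformin and vehicle in wild type (edgeR quasi-likelihood test, Benjamini-Hochberg over 15003 genes, 0% called, smallest adjusted p 0.876). At an unadjusted p under 0.05 there were 604 genes, 4.03% of those tested, with 315 higher and 289 lower under metformin. All 3 metformin libraries stood above all 3 vehicle libraries for 747 genes (4.98%) and below them for 660 (4.4%), and the fitted fold change was above 0 for 51.9% of the genes. Without WT MET 2 again 0% were called, 2.17% of 15409 genes had an unadjusted p under 0.05, and both remaining metformin libraries stood above all vehicle libraries for 8.1% and below for 6.84% of the 15003 genes. The count of 0 depended on the tool and on the filter. DESeq2 and limma-voom with sample quality weights each called 1 gene, Rgs1, and edgeR with no filter on low counts called 218. Genes are therefore described as reading higher or lower, with their values, and each wild-type gene with a fold change given had an edgeR adjusted p of at least 0.876.

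Rgs1 had the smallest p. It lies on chromosome 1 (mm10, 144242296 to 144249242, minus strand) and encodes a GTPase activator that shortens signalling by G protein-coupled receptors, chemokine receptors among them. Rgs1 stood at 94.5, 136 and 168 CPM in vehicle libraries 1, 2 and 3 and at 290, 264 and 257 CPM in metformin libraries 1, 2 and 3. The groups did not overlap, so the metformin libraries also lay above the vehicle libraries within each round. The log2 fold change was 0.96 ± 0.172 (SE, n = 3 per group) in edgeR and 1.01 ± 0.187 without WT MET 2. The adjusted p was 0.0372 in DESeq2 and 0.0201 in limma-voom. In the mutant the same contrast gave 0.18 ± 0.175.

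Id1 was next. Its product is a helix-loop-helix protein without a DNA-binding region that holds back differentiation factors and is a target of BMP signalling. Id1 levels were 2.32, 2.83 and 5.61 CPM under vehicle and 9.26, 12.3 and 8.75 CPM under metformin, again without overlap. Its log2 fold change was 1.44 ± 0.353 (1.31 ± 0.378 without WT MET 2). Sat1, the acetyltransferase that starts polyamine breakdown, varied little among the metformin libraries, at 102, 101 and 101 CPM against 59.8, 64.8 and 82.2 CPM under vehicle. Its log2 fold change was 0.52 ± 0.133, and the same 0.52 ± 0.149 without WT MET 2. The lectin-like ligand gene Clec2d stood at 10.5, 7.95 and 11.4 CPM under vehicle and at 16.5, 15.1 and 26.8 CPM under metformin. All 4 of these genes had separate groups with all 3 metformin libraries, which leaving out WT MET 2 cannot undo.

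With immunoglobulin segments, pseudogenes and unnamed gene models left aside, the other genes of smallest p that read higher in both rounds were Lhfp, Gsap, Tuba8, Mterf1b, Tmsb4x and Rps12, with log2 fold changes from 0.62 ± 0.187 (Tuba8) to 1.49 ± 0.450 (Mterf1b). Tmsb4x encodes the actin-sequestering peptide thymosin beta 4. It stood at 567, 443 and 665 CPM under vehicle and at 793, 1466 and 899 CPM under metformin, with a log2 fold change of 0.74 ± 0.223, and 0.53 ± 0.207 without WT MET 2. Rps12, a protein of the small ribosomal subunit, read 1172, 955 and 823 CPM against 1675, 1757 and 1400 CPM. Its count is uncertain, because 24 pseudogenes in the table are named after it and its exons hold 3 other small genes. Of these 6 genes only Tuba8 had groups that overlapped.

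By the same rule the 10 genes of smallest p that read lower were Pik3c2a, Fasn, Tmem245, Scd2, Filip1l, Flywch1, Ubr4, Rapgef1, Asap1 and Nup188. Pik3c2a, a class II phosphoinositide 3-kinase of endocytic membranes, stood at 3.37, 2.49 and 7.50 CPM under vehicle and at 1.77, 1.52 and 1.66 CPM under metformin, a log2 fold change of −1.51 ± 0.379. Filip1l, a negative regulator of cell motility, was at 5.08, 4.73 and 4.79 CPM against 2.12, 1.12 and 2.15 CPM (−1.47 ± 0.453). The vehicle libraries lay close together for Filip1l and far apart for Pik3c2a, where WT VEH 3 was the highest.

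Asap1 and Rapgef1 act on small GTPases of the cytoskeleton and of adhesion. Asap1 stood at 271, 311 and 238 CPM under vehicle and at 218, 162 and 196 CPM under metformin (−0.41 ± 0.133). Rapgef1 stood at 198, 208 and 173 CPM against 140, 126 and 146 CPM (−0.44 ± 0.142). Ubr4 is a very large ubiquitin ligase, Nup188 a scaffold of the nuclear pore, and both had metformin values below every vehicle value. Of the 10 genes, Tmem245 and Scd2 overlapped between the groups. Without WT MET 2 the 10 fold changes ran from −1.36 ± 0.418 (Pik3c2a) to −0.37 ± 0.146 (Asap1).

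**Figure D1:**
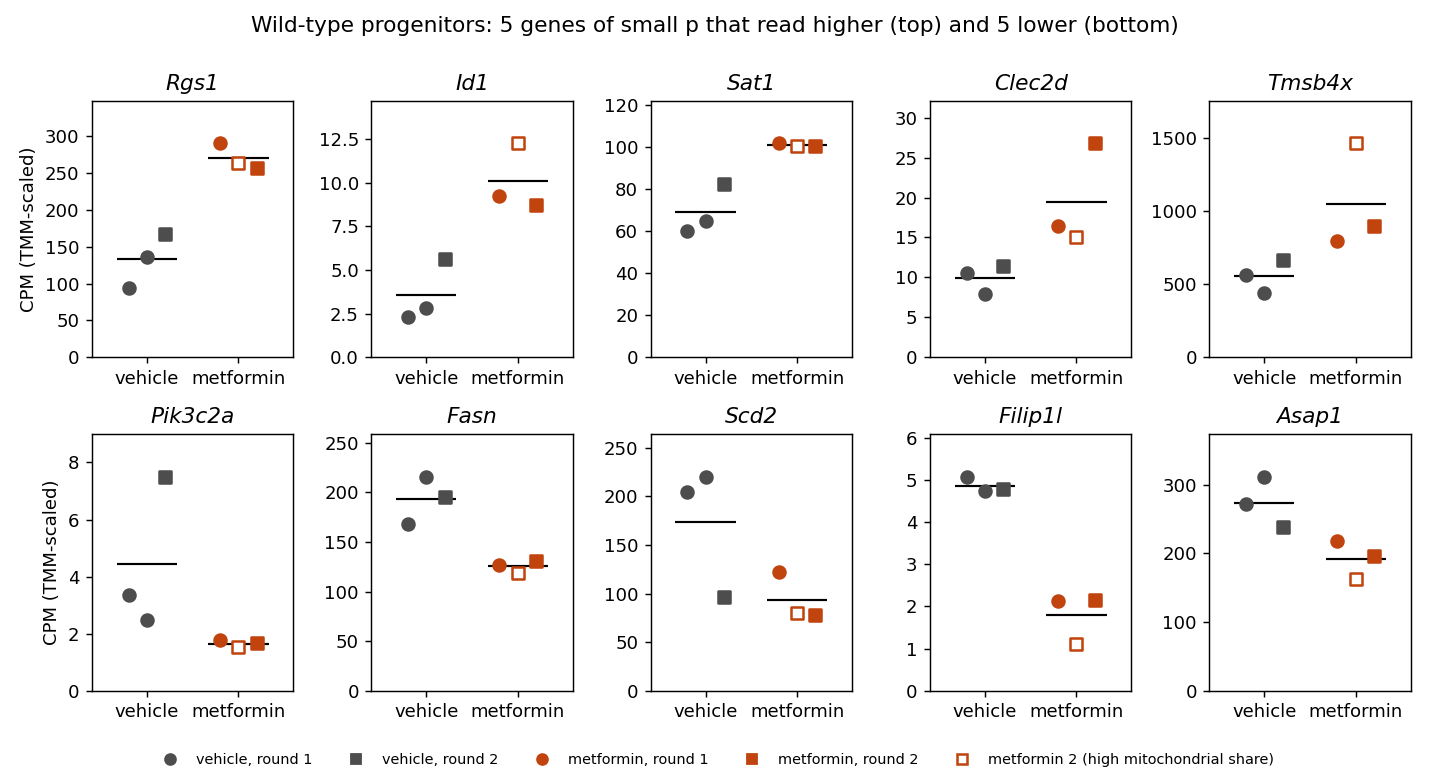
CPM of 10 genes in the 6 wild-type libraries, 1 panel per gene, each axis starting at 0, with circles for round 1, squares for round 2, an open square for WT MET 2 and a line at the group mean. Rgs1 sits at 94.5 to 168 CPM under vehicle and 257 to 290 CPM under metformin, and Fasn at 169 to 216 CPM against 119 to 131 CPM.

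Fasn and Scd2 belong to fatty acid synthesis, the pathway that builds palmitate from acetyl-CoA and then elongates and desaturates it. All 11 tested genes of that list read lower under metformin, with a median log2 fold change of −0.44, against 0.01 over all genes tested. Of the 11, 5 had an unadjusted p under 0.05 in edgeR, against 4.03% of all genes tested in either direction. In 4 every metformin library lay below every vehicle library, against 4.4% of all genes. Without WT MET 2 all 11 again read lower, with a median of −0.32. The median was −0.41 between the round 1 libraries and −0.28 between the round 2 libraries.

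The synthesis enzymes come first. Acly, which splits citrate to acetyl-CoA, stood at 211, 229 and 236 CPM under vehicle and at 165, 116 and 187 CPM under metformin. Acaca, the acetyl-CoA carboxylase that AMPK phosphorylates, stood at 44.2, 62.7 and 43 CPM against 35.4, 29.6 and 30.4 CPM. Fasn, the fatty acid synthase, stood at 169, 216 and 195 CPM against 127, 119 and 131 CPM. In all 3 the groups were separate. The log2 fold changes were −0.53 ± 0.268 for Acly, −0.59 ± 0.212 for Acaca and −0.62 ± 0.171 for Fasn, and without WT MET 2 they were −0.39 ± 0.279, −0.59 ± 0.245 and −0.60 ± 0.197.

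The desaturases Scd1 and Scd2 followed the rounds as well as the treatment. Scd2 stood at 205, 220 and 96 CPM under vehicle and at 122, 80 and 77.5 CPM under metformin. Scd1 stood at 72.6, 87.5 and 20.7 CPM against 30.4, 23.6 and 24.4 CPM. WT VEH 3 was the low vehicle library for both genes, so the groups overlapped, and within round 2 alone the Scd1 fold change was above 0, at 0.18. The desaturase Fads2 read −0.44 ± 0.192, with WT MET 2 lowest at 43.4 CPM, and −0.32 ± 0.193 without it. The elongase Elovl6 had separate but close groups, at 23.5, 26 and 24.8 CPM against 22.9, 20.6 and 22.3 CPM. Srebf1, which encodes SREBP1 itself, stood at 219, 202 and 129 CPM against 176, 151 and 127 CPM (−0.14 ± 0.164, and −0.21 ± 0.171 without WT MET 2). The other 3 members, Elovl5, Fads1 and Acsl1, had fold changes of −0.31, −0.07 and −0.18 with overlapping groups, and Elovl5 read −0.11 without WT MET 2.

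**Figure D2:**
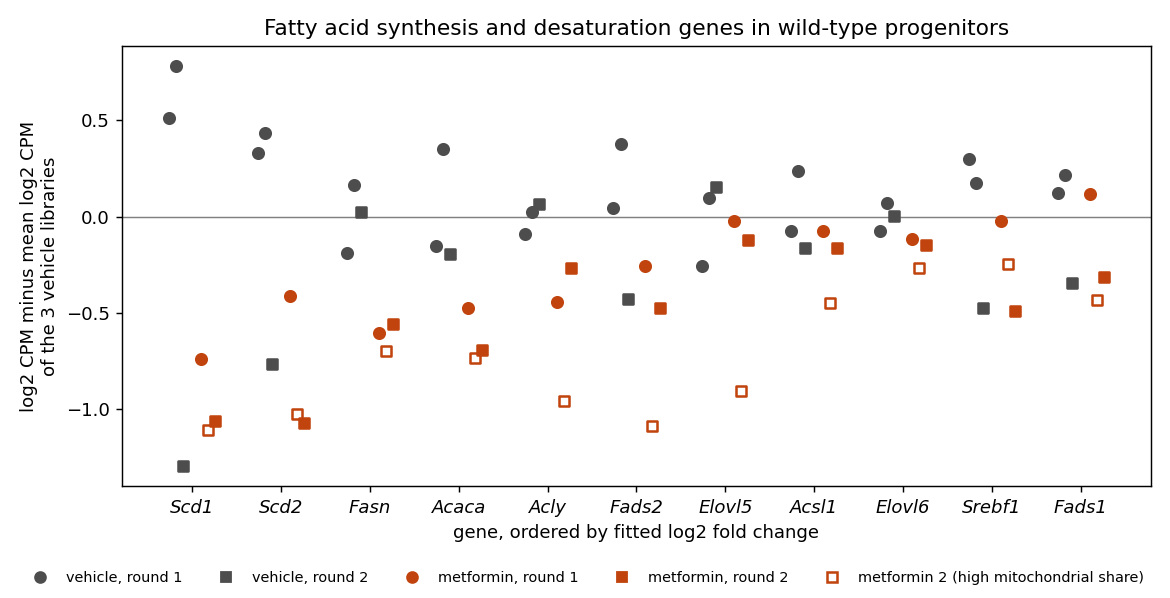
Log2 CPM of the 11 tested fatty acid synthesis genes, each relative to the mean of its 3 vehicle libraries (line at 0), with the vehicle libraries to the left and the metformin libraries to the right of each gene. The metformin values of Fasn and Acaca lie below all of their vehicle values, while WT VEH 3 lies below the metformin libraries for Scd1.

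The 250 bases upstream of the Fasn start are shown because Fasn had the smallest p of that list. The sequence is from the RefSeq promoter table (build GRCm38.p6), chr11:120824548-120824797, minus strand, written 5′ to 3′ with CCAAT boxes, the site of the factor NF-Y, in capitals on either strand. The CCAAT match was chosen after the data had been seen.
Fasn: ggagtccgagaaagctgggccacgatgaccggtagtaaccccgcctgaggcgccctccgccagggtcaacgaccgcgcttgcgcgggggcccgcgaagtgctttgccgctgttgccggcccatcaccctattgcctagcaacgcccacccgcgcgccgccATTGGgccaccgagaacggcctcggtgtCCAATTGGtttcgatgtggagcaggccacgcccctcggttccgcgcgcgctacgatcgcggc
There were 3 matches, which begin 90, 62 and 59 bases before the start, the last 2 overlapping. Of all 32851 promoters in the table, 33.8% hold CCAAT in the same window, and of the 8 fatty acid genes with an entry, 4 did. The first is a share of promoters, while a gene counted if any of its promoters matched. The E-box CACGTG (6.02% of all promoters), the CRE TGACGTCA (1.55%) and the AP-1 motif TGANTCA (6.75%) were absent from this window of Fasn. Rgs1, Id1 and Scd2 had no entry in the table.

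Genes of metformin entry and of the AMPK pathway split between higher and lower. Of 10 listed transporter genes 4 passed the filter on low counts, with a median of 0.03 (0.09 without WT MET 2). Slc22a3, the organic cation transporter OCT3, stood at 27, 36.1 and 56.6 CPM under vehicle and at 35.6, 40.5 and 43.7 CPM under metformin, a log2 fold change of −0.13 ± 0.160 (−0.08 ± 0.175 without WT MET 2). Prkaa1, the AMPK alpha 1 subunit, stood at 76.4, 97.1 and 78.9 CPM against 84.7, 78.5 and 78.3 CPM (−0.02 ± 0.123, and −0.04 ± 0.138 without WT MET 2). The 6 tested AMPK subunits split 4 higher and 2 lower with a median of 0.25 (0.06 without WT MET 2), and the whole list of AMPK and biguanide target genes split 11 and 11, with a median of 0.02 (−0.06 without WT MET 2).

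Within that list 3 of 22 tested genes had metformin values below all vehicle values, against 4.4% of all genes tested. They were Acaca, described above, Gpd2, the mitochondrial glycerophosphate dehydrogenase that metformin has been reported to inhibit (41.2, 51.1 and 43.8 CPM against 40.9, 40.1 and 32.9 CPM), and Txnip, an inhibitor of glucose uptake. Txnip stood at 270, 305 and 233 CPM under vehicle and at 232, 142 and 221 CPM under metformin, −0.34 ± 0.196, and −0.21 ± 0.196 without WT MET 2. The highest metformin value of Txnip and of Gpd2 lay only just under the lowest vehicle value.

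The mTORC1 list had 12 of 19 tested genes lower, with a median of −0.10 (also −0.10 without WT MET 2), and its 5 complex subunits had a median of −0.26. Mtor, the kinase itself, stood at 51.2, 65 and 63.3 CPM under vehicle and at 43.6, 38.3 and 47.1 CPM under metformin (−0.48 ± 0.177). Rptor, its scaffold, stood at 58.3, 54.9 and 55.1 CPM against 46.2, 41.2 and 50 CPM (−0.26 ± 0.159). Tsc2, a brake on mTORC1, also had separate lower values (−0.24 ± 0.134). These were 3 of the 19 genes, against 4.4% of all genes tested with all metformin libraries below. Ddit4, another inhibitor of mTORC1 and a stress-induced gene, was the 1 of 19 with all metformin values above, against 4.98% of all genes. It stood at 29.2, 30.5 and 36 CPM against 23.8, 20 and 26.9 CPM (0.40 ± 0.156). Its fold change without WT MET 2 was 0.43 ± 0.167, and that of Mtor −0.43 ± 0.197.

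Central carbon metabolism read slightly lower. In glycolysis 14 of 20 tested genes were lower, with a median of −0.11 (−0.12 without WT MET 2), and in the TCA cycle 15 of 20, with a median of −0.15 (−0.10). Hk1, a hexokinase bound to mitochondria, stood at 571, 552 and 431 CPM under vehicle and at 424, 371 and 398 CPM under metformin (−0.27 ± 0.121). Hk2 read −0.45 ± 0.197 with overlapping groups. The lactate exporter Slc16a3 had separate lower values, −0.55 ± 0.257. Among TCA cycle enzymes Ogdh read −0.26 ± 0.124 and the pyruvate dehydrogenase subunit Pdhb 0.27 ± 0.147, both with overlap.

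Cholesterol synthesis, which shares the SREBP factors with fatty acid synthesis, split 10 higher and 12 lower with a median of −0.04, and 4 higher and 18 lower with a median of −0.14 without WT MET 2. Lss, the lanosterol synthase, stood at 20.3, 24 and 16.8 CPM against 16.5, 14.4 and 14.9 CPM. It was the 1 of 22 members with separate groups, against 4.4% of all genes with all metformin libraries below. Srebf2, which encodes the factor SREBP2, read −0.22 ± 0.131. Fatty acid oxidation split 9 higher and 7 lower, with a median of 0.05 (0.07 without WT MET 2).

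One-carbon metabolism had 12 of 18 tested genes lower (median −0.11, and −0.06 without WT MET 2). Mat2a, which makes S-adenosylmethionine, went the other way and varied little within the groups, at 186, 214 and 192 CPM under vehicle and 251, 248 and 254 CPM under metformin. Its log2 fold change was 0.39 ± 0.150, and 0.36 ± 0.160 without WT MET 2. Mthfd1 of the folate cycle read −0.29 ± 0.126 and the methionine synthase Mtr −0.31 ± 0.154, with separate groups for Mtr only.

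Genes that place or remove DNA methylation read lower in 7 of 8 tested cases, with a median of −0.09 (−0.17 without WT MET 2). Dnmt1, the maintenance methyltransferase, stood at 491, 575 and 532 CPM under vehicle and at 396, 341 and 444 CPM under metformin. It had separate groups and a log2 fold change of −0.43 ± 0.158 (−0.36 ± 0.172). Dnmt3a, the gene altered in the mutant arm, stood at 41.8, 43.2 and 57.4 CPM against 40.5, 59.9 and 44.3 CPM. The 10 tested genes of the PRC2 list split 5 and 5, with none separate (median −0.03 without WT MET 2).

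Mitochondrial genes took 1.57%, 2.69% and 2.15% of the counts in the vehicle libraries and 4.32%, 33.3% and 2.29% in the metformin libraries. The mean was 2.14% ± 0.560 (SD, n = 3) against 13.3% ± 17.3 (SD, n = 3), and a two-sided exact permutation test gave p = 0.2, where 3 against 3 libraries can go no lower than 0.1. Without WT MET 2 the metformin mean was 3.31% ± 1.44 and the exact permutation p was 0.3. WT MET 3 lay within the vehicle range, so the groups overlapped with and without WT MET 2.

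The messages of the mitochondrial genome encode core subunits of complexes I, III, IV and V. All 12 tested messages read higher, with a median log2 fold change of 2.18 with WT MET 2 and 0.64 without it. That median was 2.83 without RH VEH 2, the mutant library of high mitochondrial share. mt-Co1, the catalytic subunit of complex IV, stood at 7659, 12386 and 8602 CPM under vehicle and at 20087, 224810 and 10362 CPM under metformin, 2.19 ± 1.66, and 0.64 ± 1.32 without WT MET 2. mt-Nd1 of complex I read 2.18 ± 1.65 and mt-Cytb of complex III 2.14 ± 1.58, and without WT MET 2 they read 0.68 ± 1.34 and 0.64 ± 1.28. In both, WT MET 3 stood within the vehicle range and WT MET 1 above it. mt-Atp6, mt-Co2, mt-Co3 and mt-Nd3 had separate groups, but they share a near-identical nuclear copy, and their counts here are uncertain.

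Nuclear genes of the respiratory chain also read higher on the whole, with much smaller folds. Complex I had 31 of 36 tested subunits higher (median 0.27, and 0.12 without WT MET 2) and complexes II to V had 30 of 39 higher (0.20, and 0.14). The rounds differed. The median for complex I was 0.55 between the round 2 libraries and −0.02 between the round 1 libraries, where WT VEH 1 stood highest and WT VEH 2 lowest. Without WT VEH 3 it was 0.12, and without WT VEH 1 it was 0.47. Ndufs4, an accessory subunit of the matrix arm, stood at 55.5, 43.5 and 39.7 CPM under vehicle and at 63.6, 61 and 61.1 CPM under metformin (0.46 ± 0.162). Ndufa12 stood at 22, 11.2 and 9.68 CPM against 31.1, 23.9 and 28.4 CPM (1.07 ± 0.443). These 2 of 36 were the complex I subunits with separate groups, not clearly more than the 4.98% of all genes tested with all metformin libraries above.

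Of the other complexes, Cox6c stood at 175, 143 and 115 CPM under vehicle and at 213, 224 and 202 CPM under metformin (0.62 ± 0.211). Atp5l of the ATP synthase stood at 141, 123 and 97.9 CPM against 161, 158 and 156 CPM (0.46 ± 0.168). All 11 tested nuclear subunits of complex IV read higher, with a median of 0.22 (0.21 without WT MET 2). Factors that transcribe or copy the mitochondrial genome read higher in 7 of 10 cases (median 0.13, and 0.15 without WT MET 2), among them Mterf3 at 0.33 ± 0.170, Ssbp1 at 0.33 ± 0.174 and the helicase Twnk at 0.42 ± 0.261, which read 0.11 ± 0.220 without WT MET 2.

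Ribosomal protein genes read higher with these lists. Of the cytosolic ribosome 52 of 54 tested genes read higher, with a median of 0.23 (0.16 without WT MET 2), and of the mitochondrial ribosome 36 of 42, with a median of 0.15 (0.09). For the mitochondrial ribosome the median was 0.02 without WT VEH 3 and −0.03 between the round 1 libraries. For the cytosolic ribosome it was 0.10 without WT VEH 2, 0.05 between the round 1 libraries and 0.39 between the round 2 libraries. Its lowest value under the alternatives other than leaving out 1 library was 0.0004. Of the ribosomal protein genes, 3 cytosolic members and 1 mitochondrial member had separate groups with metformin above. That held for 4.98% of all genes tested, which these counts do not clearly exceed. Rpl17 stood at 603, 311 and 439 CPM under vehicle and at 693, 815 and 702 CPM under metformin. The Rpl17 count is uncertain, because 11 pseudogenes in the table are named after it. Rpl22 stood at 674, 467 and 450 CPM against 714, 857 and 737 CPM. WT VEH 1 was the highest vehicle library for both. Ribosome biogenesis factors split 11 higher and 9 lower (median 0.01), and 7 higher and 13 lower without WT MET 2 (median −0.10).

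**Figure D3:**
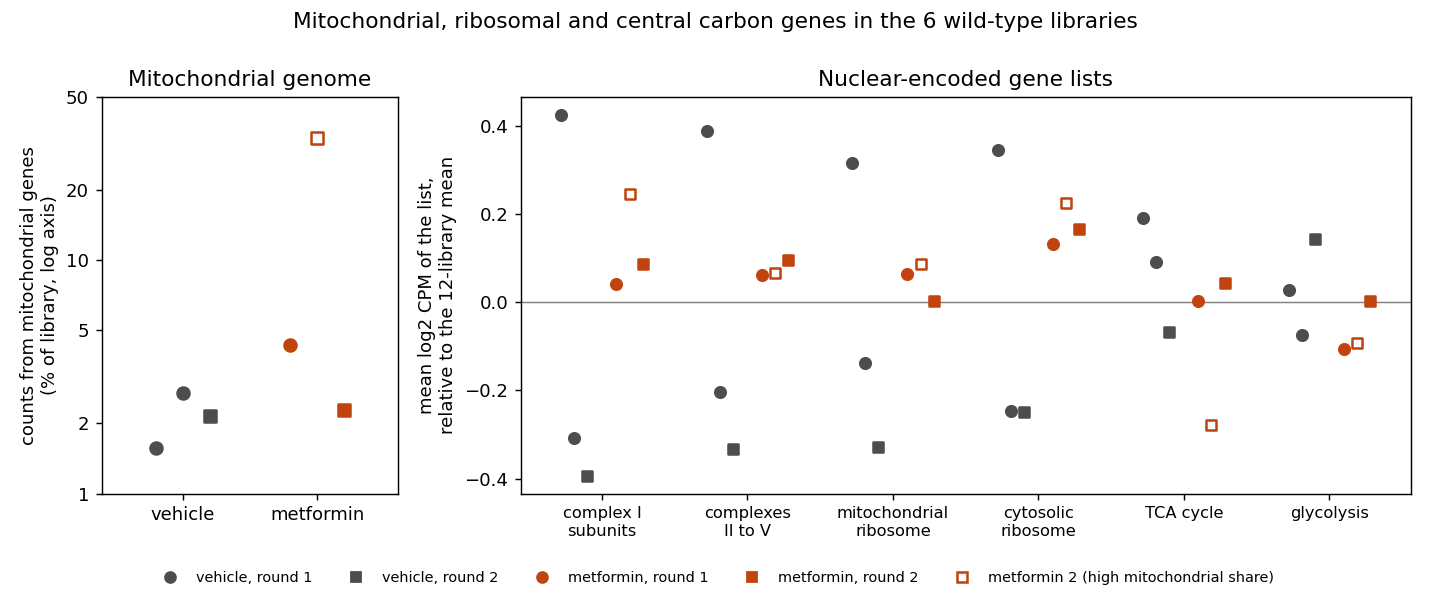
Left, percent of counts from mitochondrial genes per library on a log axis, and right, the mean log2 CPM of 6 nuclear gene lists relative to the mean of all 12 libraries. WT MET 2 sits at 33.3%, and for complex I WT VEH 1 lies above and WT VEH 2 and 3 lie below all 3 metformin libraries.

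Gene length moved with the same lists. Over the 3001 shortest genes (38 to 1765 bp as deposited) the median log2 fold change was 0.16, over the next 3 of 5 bins of equal size 0.08, 0.03 and −0.02, and over the 3000 longest (6878 to 123179 bp) −0.11. The share of genes above 0 went from 64.4% to 32.9%. Without WT MET 2 the medians of the bins of the shortest and longest genes were 0.12 and −0.12. The mutant contrast ran the opposite way, from −0.17 to 0.09. Spearman correlations of relative level with length across genes, given as a description, were −0.26, 0.27 and 0.19 in the vehicle libraries and −0.12, −0.09 and −0.18 in the metformin libraries. Thus WT VEH 1 ranked with the metformin libraries and the other 2 vehicle libraries did not.

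With a length trend removed from each library, an alternative chosen after seeing the data, no gene was called and the median of the cytosolic ribosome was 0.11, of complex I 0.17, of complexes II to V 0.08 and of the mitochondrial ribosome 0.09. Fatty acid synthesis kept a median of −0.41, and Fasn, at 10947 bp, read −0.50. Rgs1 read 1.01 and Pik3c2a −1.41. The part of gene length in the other results was not tested.

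**Figure D4:**
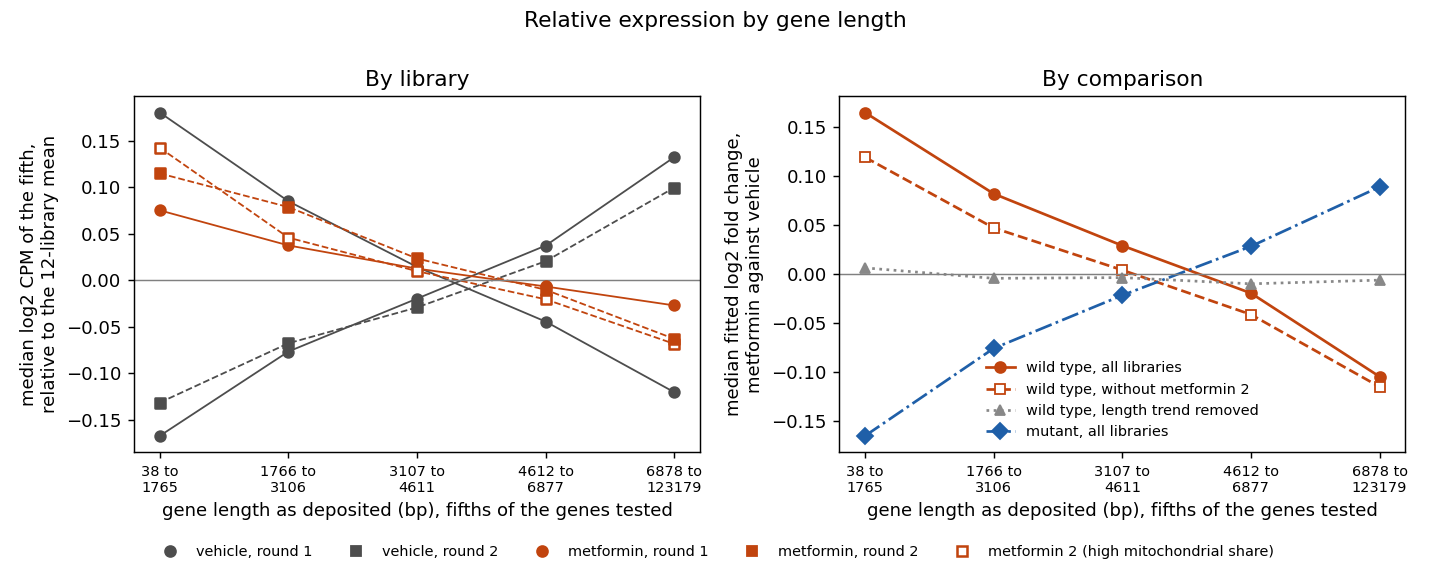
Left, the median relative log2 CPM of each of 5 bins of genes by length in the 6 wild-type libraries, and right, the median fitted log2 fold change of each bin under 4 comparisons. The wild-type line falls from 0.16 to −0.11 and the mutant line climbs from −0.17 to 0.09.

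Marker genes of cell types inside and outside the gate were read next. In bulk RNA, fewer cells of a type and less RNA per cell cannot be told apart. Megakaryocyte genes stood out by their count: 23 of 26 tested markers read higher (88.5%), against 51.9% of all genes tested. For 7 of them every metformin library lay above every vehicle library, against 4.98% of all genes. Leaving out WT MET 2 cannot lower this count. It stayed at 7, while the share of all genes rose to 8.1%. The median log2 fold change was 0.65, and 0.31 without WT MET 2, where 20 of 26 read higher. WT MET 2 was the highest library by the mean of the list, WT MET 1 the next, and WT MET 3 lay level with WT VEH 1. The summed level of the list was 2004 to 2495 CPM under vehicle and 2111 to 4007 CPM under metformin.

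Pf4, a platelet granule chemokine, stood at 155, 165 and 105 CPM under vehicle and at 311, 553 and 207 CPM under metformin. Its log2 fold change was 1.28 ± 0.440, and 0.87 ± 0.366 without WT MET 2. The tetraspanin Cd9 stood at 48.7, 57.9 and 59.7 CPM against 88.3, 139 and 72.2 CPM (0.71 ± 0.243), and Serpine2 at 31.7, 41.1 and 29.3 CPM against 51.6, 102 and 47.5 CPM (0.83 ± 0.291, and 0.49 ± 0.232 without WT MET 2). For each of the 3, WT MET 2 was the highest and WT MET 3 the lowest metformin library. Itga2b (CD41), Gp9, Treml1 and Rab27b were the other 4 with separate groups, and of these Itga2b went from 0.80 ± 0.434 to 0.32 ± 0.326 without WT MET 2. Fli1, an ETS factor of the lineage, read 0.50 ± 0.160 with overlapping groups.

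Stem cell genes read higher in 24 of 30 cases, with a median of 0.40, and in 22 of 30 without WT MET 2, with a median of 0.12. The list shares members with the megakaryocyte list, Vwf and Gfi1b among them. Pdzk1ip1 stood at 42.5, 35.6 and 36.8 CPM under vehicle and at 49, 65.6 and 58 CPM under metformin (0.50 ± 0.181). Esam stood at 4.69, 5.07 and 4.69 CPM against 8.43, 14.2 and 7.25 CPM (0.95 ± 0.415). Ly6a, which encodes Sca-1 of the stem cell gate, read the other way at 8.28, 5.27 and 8.42 CPM against 2.71, 6.90 and 5.96 CPM (−0.80 ± 0.297). The Ly6a groups overlapped, while Tgm2 and Txnip had separate lower values. Of the 30 genes, 3 had all metformin libraries above and 2 below, against 4.98% and 4.4% of all genes tested. Of the homeobox genes with Meis and Pbx factors, 9 of 11 read higher with a median of 0.25 that was 0.02 without WT MET 2, and Meis1 went from 0.43 ± 0.269 to 0.15 ± 0.248.

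Granulocyte genes read lower in all 28 tested cases, with a median of −0.54, but with no marker separate between the groups. The summed level of the list was 4293, 4248 and 9280 CPM under vehicle and 4377, 1802 and 7036 CPM under metformin. WT VEH 3 was the highest and WT MET 2 the lowest library. Without WT MET 2 the median was −0.15 and 9 of 28 read higher, and without WT VEH 3 it was 0.00. Mpo, the primary granule peroxidase, stood at 1558, 1314 and 2125 CPM against 1120, 538 and 1801 CPM, and the receptor gene Csf3r read −0.64 ± 0.467 (−0.41 ± 0.496 without WT MET 2). Monocyte genes gave the same order of libraries by summed level, with 13 of 17 lower and a median of −0.23 (−0.08 without WT MET 2, and 0.04 without WT VEH 3). Fn1 and Cd14 read −1.25 ± 0.828 and −1.11 ± 0.833, WT MET 2 was their lowest library, and without it they read −0.86 ± 0.899 and −0.67 ± 0.756. Multipotent progenitor genes read lower in 8 of 11 cases (median −0.20, −0.00 without WT MET 2 and 0.15 without WT VEH 3).

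Erythroid genes split 12 higher and 10 lower with a median of 0.02 (0.06 without WT MET 2), and mast cell and basophil genes 9 and 3 with a median of 0.11 (0.32 without WT MET 2). Dendritic cell genes had 11 of 17 higher (median 0.16, 0.09 without WT MET 2 and −0.05 without WT MET 3), and the chemokine receptor Xcr1, at 0.276 to 0.536 CPM under vehicle and 0.913 to 1.12 CPM under metformin, was separate at very low counts. B lineage genes read lower in 15 of 18 cases with a median of −0.42, and in 16 of 18 with −0.46 without WT MET 2. Without WT VEH 1 the median was −0.11. Their summed level was 1559, 1400 and 1083 CPM under vehicle and 965, 1241 and 593 CPM under metformin, which overlap. Fcmr (−1.28 ± 0.511), Cd22 (−0.65 ± 0.294) and the recombinase gene Rag1 (−1.06 ± 0.491) were the members of smallest p.

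Genes of T and NK cells, which the lineage depletion removes, read higher in 24 of 33 cases with a median of 0.30 (0.13 without WT MET 2). It was 0.07 without WT VEH 3. Their summed level was 172 to 236 CPM under vehicle and 243 to 313 CPM under metformin. Lat, an adaptor that is also used by megakaryocytes, stood at 23.7, 22.4 and 19.1 CPM against 35, 82.5 and 33.1 CPM (1.05 ± 0.450, and 0.61 ± 0.364 without WT MET 2) and had the smallest p of that list. Stromal and endothelial genes had 16 of 23 higher, with a median of 0.26 (0.58 without WT MET 2, and −0.33 without WT MET 1). Their summed level was 349, 302 and 1254 CPM under vehicle and 540, 326 and 1004 CPM under metformin, highest in WT VEH 3 and WT MET 3. The part of these cell types in other results was not tested.

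**Figure D5:**
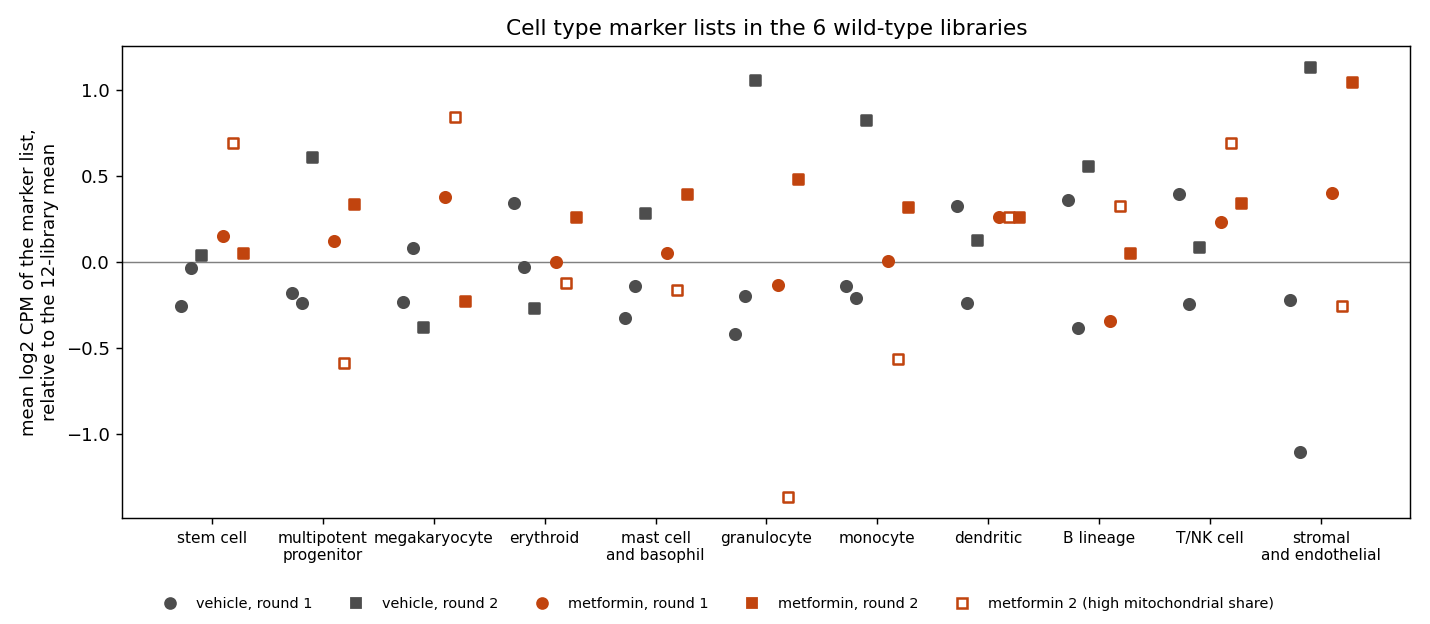
Mean log2 CPM of 11 cell type marker lists in the 6 wild-type libraries, relative to the mean of all 12 libraries. For the granulocyte list WT VEH 3 is highest and WT MET 2 lowest, while for the megakaryocyte list WT MET 2 and WT MET 1 are the 2 highest.

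Stress and signalling genes came last. All 15 tested heat shock and chaperone genes read higher, with a median of 0.27. Only Hsp90b1 had separate groups, against 4.98% of all genes with all metformin libraries above. Without WT MET 2, 11 of 15 read higher and the median was 0.06. Hspb1, a small heat shock protein, stood at 0.938, 1.61 and 5.03 CPM under vehicle and at 3.42, 17.4 and 4.08 CPM under metformin (1.32 ± 0.544, and 0.64 ± 0.498 without WT MET 2). Hspa1a, the inducible HSP70, stood at 29.5, 60.9 and 316 CPM against 136, 501 and 301 CPM. It was highest in the round 2 libraries of both groups, and its near-identical copy Hspa1b gave the same order. Hspa5, the chaperone of the endoplasmic reticulum, read 0.41 ± 0.189.

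The 250 bases upstream of the Hspb1 start are shown because Hspb1 had the smallest p of the chaperones. They come from the same table, chr5:135887669-135887918, plus strand, 5′ to 3′, with matches to GAANNTTC, 2 inverted units of the heat shock element, in capitals. This motif was chosen after the data had been seen.
Hspb1: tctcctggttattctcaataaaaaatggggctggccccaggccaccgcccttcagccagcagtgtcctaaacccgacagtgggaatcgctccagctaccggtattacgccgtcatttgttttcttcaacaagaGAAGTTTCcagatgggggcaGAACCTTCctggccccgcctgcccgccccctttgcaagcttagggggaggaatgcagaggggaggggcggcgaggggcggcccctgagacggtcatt
The 2 matches begin 117 and 97 bases before the start. The motif is its own reverse complement and occurs in 6.69% of the 32851 promoters, and in 6 of the 11 chaperone genes with an entry (Dnaja1, Hspa1a, Hspa1b, Hspb1, Hspd1 and Hspe1). Of the 119 named genes with a promoter entry, 8 held it, 16 the E-box, 3 the CRE, 8 the AP-1 motif and 57 the CCAAT box. Over all promoters the shares were 6.69%, 6.02%, 1.55%, 6.75% and 33.8%, in the same order. A gene counted if any of its promoters matched, so the counts of genes and the shares of promoters differ in unit.

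The ATF4 stress response split 10 higher and 12 lower with a median of −0.05 (−0.02 without WT MET 2). Nupr1, a stress-induced chromatin protein, stood at 2.43, 1.66 and 1.74 CPM under vehicle and at 4.48, 4.16 and 2.95 CPM under metformin (0.98 ± 0.343). It was the 1 of 22 members with separate groups, against 4.98% of all genes with all metformin libraries above. Gdf15, a hormone induced by metformin in other tissues, stood at 3.04, 1.46 and 3.58 CPM against 2.24, 3.14 and 4.08 CPM (0.07 ± 0.340, and 0.11 ± 0.369 without WT MET 2). Ddit3 (CHOP) read 0.54 ± 0.367 and Atf4 0.49 ± 0.232, and both read lower folds without WT MET 2, at 0.22 ± 0.327 and 0.19 ± 0.182. NRF2 and antioxidant genes split 7 and 9 (median −0.04 with and without WT MET 2), and hypoxia genes 3 and 11 with a median of −0.08 (−0.03 without WT MET 2).

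Immediate early genes read higher in 22 of 30 cases with a median of 0.15, and in 16 of 30 with 0.04 without WT MET 2. Dusp2, a nuclear phosphatase that switches off ERK, stood at 67.2, 49.3 and 75.8 CPM under vehicle and at 88.7, 89.8 and 96.1 CPM under metformin. It read 0.48 ± 0.187, and 0.49 ± 0.207 without WT MET 2. The AP-1 member Fosl2 read the other way, at 46.2, 41.4 and 61.2 CPM against 33.8, 19.2 and 18.8 CPM (−1.01 ± 0.439), as did the nuclear receptor Nr4a3 (−1.14 ± 0.458). Ier5 and Klf2 read 0.46 ± 0.195 and 0.40 ± 0.175, and Ier5 0.31 ± 0.190 without WT MET 2. The median of the list was 0.34 between the round 1 libraries and −0.22 between the round 2 libraries. The MYC network split 4 and 6 (median −0.09, and −0.06 without WT MET 2), where Mycn was separate at 5.57, 6.29 and 5.52 CPM against 8.90, 23.3 and 10.8 CPM (1.07 ± 0.406, and 0.68 ± 0.361 without WT MET 2).

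Interferon-stimulated genes split 15 higher and 12 lower with a median of 0.06 (0.13 without WT MET 2). Ifit1 and Bst2 had separate higher values, with Bst2, a membrane protein that tethers virus particles, at 54.5, 39.3 and 41.8 CPM under vehicle and 58.2, 80.1 and 56 CPM under metformin (0.56 ± 0.234, and 0.36 ± 0.222 without WT MET 2). Ifit1 read 1.10 ± 0.466 at under 3 CPM. NF-kB and TNF response genes had 16 of 26 lower (median −0.15, −0.10 without WT MET 2 and 0.02 without WT VEH 3), while the chemokines Ccl4 (0.52 ± 0.203) and Ccl3 (0.51 ± 0.237) read higher and the subunit Nfkb2 lower (−0.43 ± 0.202). The p53 targets split 10 and 8 (median 0.08, and 0.00 without WT MET 2). Cdkn1a read −0.51 ± 0.255, Fas −1.27 ± 0.554 and Gadd45a 0.71 ± 0.411 (0.30 ± 0.334 without WT MET 2), all with overlap.

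Cell cycle and protein turnover lists lay near the median of all genes. S phase genes split 16 higher and 14 lower (median 0.02), mitosis genes 10 and 18 (−0.07) and G1 cyclins, CDKs and inhibitors 6 and 8 (−0.01). These medians were −0.03, −0.06 and −0.02 without WT MET 2. Pole, the leading-strand polymerase, was separate at 128, 178 and 118 CPM against 111, 108 and 97 CPM (−0.33 ± 0.169), and Mcm5 and Bub1b read −0.27 ± 0.151 and −0.34 ± 0.189. Proteasome, lysosome and V-ATPase genes had medians of 0.02 and 0.01, and autophagy genes −0.05. They were 0.03, 0.01 and −0.01 without WT MET 2.

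The metformin effect was set against that in the mutant progenitors by an interaction contrast. No gene passed an adjusted p of 0.05 for the difference between the 2 effects (edgeR quasi-likelihood test, 0% of 15003 genes called, smallest adjusted p 0.648), and 932 genes had an unadjusted p under 0.05. Limma-voom with sample quality weights called 1946 and edgeR with no filter 431. The mutant vehicle group holds the other library with a high mitochondrial share, RH VEH 2 at 40.8%. Without RH VEH 2, or without both such libraries, edgeR called 1 gene, Gapdh, and within round 1 alone it called 3.

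Side by side, Fasn read −0.62 ± 0.171 in wild type and 0.28 ± 0.174 in the mutant, a difference of −0.89 that did not pass the adjusted threshold. The fatty acid synthesis median was −0.44 in wild type and 0.09 in the mutant, the cytosolic ribosome 0.23 and −0.33, complex I 0.27 and −0.38, the mitochondrial messages 2.18 and −2.41, the granulocyte list −0.54 and 1.15 and the T and NK cell list 0.30 and −1.02. The megakaryocyte list read 0.65 and −0.02 and the B lineage list −0.42 and −0.33. Without WT MET 2 the wild-type medians were −0.32 (fatty acid synthesis), 0.16 (cytosolic ribosome), 0.12 (complex I) and 0.64 (mitochondrial messages). They were −0.15 (granulocyte), 0.13 (T and NK cell), 0.31 (megakaryocyte) and −0.46 (B lineage) for the cell type lists. The libraries of high mitochondrial share lie in opposite arms, WT MET 2 under metformin and RH VEH 2 under vehicle. Their part in the opposite signs was not tested. Each contrast compares its own libraries, but both come from the same fit with a shared round term and spread. No list was tested for a difference.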

How the data were processed

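Bulk RNA-seq of sorted lineage-negative, cKit-positive bone marrow cells was read as a table of 12 libraries. The values are read counts per gene deposited by the authors, made with STAR 2.5 and HTSeq 0.6.1 on mm10, per the submitters' processing notes. Strand setting and treatment of multiply mapped reads are not given in the sources used here, so overlapping and antisense genes cannot be told apart. No row lacked a gene name (0 rows). In a smaller table of 8 columns, 2 columns matched no sample and were not used.

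Genes were kept by filterByExpr (15003 genes) and scaled by TMM. The edgeR 4.0.16 robust quasi-likelihood test (R 4.3.3, limma 3.58.1) used all 12 libraries with terms for the 4 groups and the 2 rounds. Benjamini-Hochberg adjustment ran over all genes tested, with 0.05 as the threshold. Plotted log2 CPM used a prior count of 2. Alternatives were no filter, a stricter filter, DESeq2 1.42.0 and its size factors, limma-voom, other terms, each library or round left out, and removal of a gene length trend.

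The 45 gene lists and the genes named were chosen with earlier results of these data known. Named genes were the 10 of smallest p per direction with the same sign in both rounds and a mean log2 CPM of at least 1, up to 3 of smallest p per list, and 9 genes always given. Gene models without a name, pseudogenes, histone genes and immunoglobulin or T cell receptor segments were left out of the first rule. Other genes named were chosen after their values were seen, among them list members whose groups did not overlap. Of the genes tested, 14997 had an entry in GENCODE vM21, 96.2% with the same start and end. A few list members are not reported here.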

Additional observations from a re-analysis of the deposited data

How the results depend on the processing

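In wild type the number of genes called was 0 with each library left out in turn (0 to 0), with the length trend removed and with the rounds taken alone, but 218 with no filter on low counts (127 higher and 91 lower of 27530 tested) and 1, Rgs1, in DESeq2 and in limma-voom. Whether the column numbers pair the samples is not known. The deviations of same-numbered wild-type libraries correlated at −0.01, 0.06 and 0.34, and those of differently numbered ones at −0.20 to 0.14. Deviations were taken within groups of 3, which ties these values to each other, so they cannot settle the pairing. With the replicate block in place of the round, 0 genes were called, 1172 had an unadjusted p under 0.05 and the smallest adjusted p was 0.0524. For the difference between wild type and mutant, 431 genes were called with no filter, 1946 by limma-voom, 1 without both libraries of high mitochondrial share, 3 in round 1 alone (mt-Rnr1, mt-Atp6 and Gapdh) and 0 to 1 with 1 library left out, the 1 without RH VEH 2. Of the 45 list medians, 25 had the same sign with each library left out, and 17 of these under each of the other alternatives too, among them fatty acid synthesis (−0.60 to −0.32 with 1 library left out), megakaryocyte (0.31 to 0.89), B lineage (−0.59 to −0.11) and T and NK cell (0.075 to 0.56). Over lists and alternatives, 39 medians moved by more than the spread between libraries. Among those that changed sign, complex I read −0.081, the mitochondrial ribosome −0.060 and multipotent progenitors 0.42 in round 1 alone, immediate early genes −0.22 in round 2 alone, monocytes 0.042 without WT VEH 3, dendritic cells −0.052 without WT MET 3 and stromal genes −0.33 without WT MET 1. Fold changes of named genes that changed sign were as follows, and the cause was not tested for lists or genes. In round 1 alone Elovl5 read 0.030, Slc22a3 0.16, Cdkn1a 0.11, Kit 0.16 and Gdf15 −0.00962. In round 2 alone Scd1 read 0.18, Srebf1 0.079 and Gdf15 −0.013. With the replicate block Slc22a3 read 0.052 and Dnmt3a 0.027, and Dnmt3a read 0.021 with no round term. With the length trend removed Dnmt3a read 0.074 and Gdf15 −0.039. With 1 library left out, Prkaa1 ran from −0.098 to 0.055 (without WT VEH 2), Slc22a3 from −0.32 to 0.027 (without WT VEH 3), Kit from −0.44 to 0.0083 (without WT VEH 3) and Gdf15 from −0.16 (without WT VEH 2) to 0.28, with −0.078 without WT MET 3. At 9.86 reads per CPM in WT MET 2, levels near 1 CPM rest on few reads.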

Other observations

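Immunoglobulin segments were outside the lists and were read after their values had been seen. Lambda light chain genes read lower under metformin: the summed level of the 7 tested segments was 507, 736 and 303 CPM in the vehicle libraries and 124, 111 and 189 CPM in the metformin libraries, without overlap. Their median log2 fold change was −2.17, and −2.06 without WT MET 2. Of the 7, 5 read lower, and 3 had all metformin libraries below all vehicle libraries, against 4.4% of all genes tested. Iglv1 stood at 191, 365 and 125 CPM under vehicle and at 46.4, 31.5 and 62.4 CPM under metformin (−2.21 ± 0.555), and Iglc1 at 273, 342 and 105 CPM against 45.4, 41.8 and 53 CPM (−2.17 ± 0.573). Kappa chain segments had 54 of 83 lower (median −0.41, and −0.15 without WT MET 2) and heavy chain segments 56 of 88 (−0.34, and −0.04). Over all genes tested, 51.9% read higher. In the mutant the lambda median was −0.59. No immunoglobulin gene passed the adjusted threshold in edgeR.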
